A study of Mus musculus with 107 samples.

Results

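The numbered Zfp genes are the genes whose array symbol is Zfp (zinc finger protein) followed by a number. They were chosen by that symbol alone, with 1 further symbol set aside, and by having probe values off the limits of the scale on at least 90% of 104 arrays. The array carried 174 such probes for 156 symbols, and 154 probes for 141 genes passed, out of 12315 named genes with values. The other 15 symbols failed this filter, among them Zfp42, a gene of pluripotent cells. At the edge of the filter, probes of Zfp335 and Zfp974 had values on 94 arrays and were kept, while Zfp46, Zfp597 and a further probe of Zfp618 had values on 93 arrays and were not.

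The livers came from female F2 mice whose grandparents were of the strains C57BL/6J and DBA/2J, both inbred, and every mouse was on an atherogenic diet, so diet, sex and cross do not vary. The labels name 107 mice (of 111 stated) and give no age. RNA of each mouse was hybridised on a 2-colour array against 1 common pool that held an equal share of RNA from the mice, and 3 arrays held only 0 or missing values, which leaves 104 mice in 1 group. The genomes of the parental strains are reshuffled in each F2 mouse, but genotypes and the parental strains were not analysed here, so whether a cluster differs between the strains could not be tested.

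Proteins with zinc fingers of the C2H2 type hold a metal ion in short loops that read DNA or RNA. The largest class in mammals joins such fingers to a KRAB domain, which recruits the corepressor Trim28 and through it the histone methyltransferase Setdb1 and heterochromatin proteins, and is best known for silencing retroelements. These genes multiplied by tandem duplication, so many lie side by side in clusters, and in mouse liver members of a cluster on chromosome 13 are known to repress sex-biased genes. Not every Zfp symbol is a KRAB gene. Zfp36 (tristetraprolin) binds AU-rich elements in messenger RNA, Zfp207 binds spindle microtubules, and Zfp451 is a SUMO ligase.

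The values are ratios of mouse to pool, so they give no level of a gene, and whether hepatocyte markers are present cannot be read from them. They are given here as log2 ratios with base 10 taken for the deposited logarithm and mouse over pool as the likely direction, since the labels state neither. With the sign turned, medians and extremes would change sign, while ranges, SDs and correlations would stay. Array medians lay between -0.09 and 0.07 log2. A set of 18 arrays, which no label sets apart, carried more than 700 values on a limit of the scale (100-fold either way), between 946 and 1828 of them, against 0 to 496 on the other 86. Results are given over 104 arrays and, where it matters, over the 86. No RNA was hybridised on a repeat array, so array noise is part of every spread, and in whole liver fewer cells of a type and less RNA per cell cannot be told apart.

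All 141 genes could be placed on a chromosome of assembly GRCm38.p6. Chromosome 7 held 41 of them (29.1%), against 7.58% of all genes, and chromosome 17 held 16 (11.3%), against 4.86%. Chromosome 8 held 11, chromosome 5 held 8, and chromosomes 6 and 9 held 7 each. Of the 141, 98 had another measured member within 5 Mb.

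Promoter sequences from RefSeq (GRCm38.p6, 250 bases before to 50 after the start) were found for 119 of the 141 genes. The following are shown because they belong to neighbours that either did or did not vary together among the mice: Zfp53 and Zfp54 from the cluster on chromosome 17, Zfp869 from the pair with the largest correlation, and Zfp59 and Zfp974 from chromosome 7. Capitals mark a CCAAT box (CCAAT), a GC box (GGGCGG) or an E-box (CACGTG), read on both strands.
Zfp53: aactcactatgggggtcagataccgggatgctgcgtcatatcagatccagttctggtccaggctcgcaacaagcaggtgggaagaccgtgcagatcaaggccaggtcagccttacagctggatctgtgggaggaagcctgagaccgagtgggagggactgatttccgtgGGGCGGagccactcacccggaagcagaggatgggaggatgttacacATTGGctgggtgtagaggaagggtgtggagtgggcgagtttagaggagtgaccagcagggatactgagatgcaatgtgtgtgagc
Zfp54: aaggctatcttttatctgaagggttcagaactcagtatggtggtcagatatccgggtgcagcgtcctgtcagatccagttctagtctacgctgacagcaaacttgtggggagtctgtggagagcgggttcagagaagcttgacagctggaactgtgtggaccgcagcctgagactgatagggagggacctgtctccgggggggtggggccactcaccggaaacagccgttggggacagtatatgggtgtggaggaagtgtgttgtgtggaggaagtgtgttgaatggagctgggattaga
Zfp869: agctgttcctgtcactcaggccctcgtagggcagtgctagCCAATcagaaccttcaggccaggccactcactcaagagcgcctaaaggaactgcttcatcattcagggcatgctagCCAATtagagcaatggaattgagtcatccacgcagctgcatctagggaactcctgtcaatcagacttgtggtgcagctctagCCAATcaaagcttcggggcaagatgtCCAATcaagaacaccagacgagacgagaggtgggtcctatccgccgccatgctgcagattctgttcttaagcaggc
Zfp59: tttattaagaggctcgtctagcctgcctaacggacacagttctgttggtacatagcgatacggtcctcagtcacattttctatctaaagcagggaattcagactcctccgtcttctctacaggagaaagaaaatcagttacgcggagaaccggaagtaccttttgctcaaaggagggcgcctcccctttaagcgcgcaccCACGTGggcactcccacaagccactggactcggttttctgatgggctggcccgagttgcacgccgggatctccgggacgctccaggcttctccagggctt
Zfp974: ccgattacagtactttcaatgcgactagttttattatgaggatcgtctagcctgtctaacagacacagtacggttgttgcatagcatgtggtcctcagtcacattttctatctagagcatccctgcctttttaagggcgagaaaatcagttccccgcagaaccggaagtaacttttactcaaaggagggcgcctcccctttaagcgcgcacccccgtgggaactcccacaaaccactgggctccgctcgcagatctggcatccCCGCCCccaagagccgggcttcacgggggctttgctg
These windows lie at chr17:21488738-21489037 (plus strand), chr17:21422977-21423276 (plus), chr8:69716853-69717152 (minus), chr7:27838334-27838633 (plus) and chr7:27929409-27929708 (minus), in the order printed. The Zfp869 window held 4 CCAAT boxes and no GC box or E-box. Zfp53 held 1 GC box and 1 CCAAT box, Zfp54 none of the motifs searched, Zfp59 1 E-box and Zfp974 1 GC box. Over the 119 promoters, 43.7% held a CCAAT box, against 37.6% of 32619 annotated promoters. The GC box was in 47.1% against 35.9%, the E-box in 11.8% against 7.20%, and the TATA box (TATAAA) in 5.88% against 13.7%. The median number of CG dinucleotides was 16 in the Zfp promoters and 7 in all promoters. The 119 were 1 promoter per gene measured here. The 32619 were limited neither to measured genes nor to 1 per gene, so the sets are unlike and the differences were not tested.

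How far the genes differed from mouse to mouse was measured as the ratio of the 95th to the 5th percentile. The spread of the Zfp genes was close to that of other genes. Their median range was 1.88-fold, against 1.94-fold over all genes, 1.97-fold over 41 zinc finger genes of other names (Zbtb, Zscan, Zkscan and Klf) and 2.09-fold over 198 solute carriers. The range exceeded 2-fold in 60 of 141 (42.6%), against 46.9% of all genes, and 4-fold in 8 (5.67%), against 9.02%. The median SD was 0.30 log2, against 0.34 over all genes. Over the 86 arrays 48 Zfp genes (34.0%) exceeded 2-fold, against 38.3% of all genes.

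**Figure D1:**
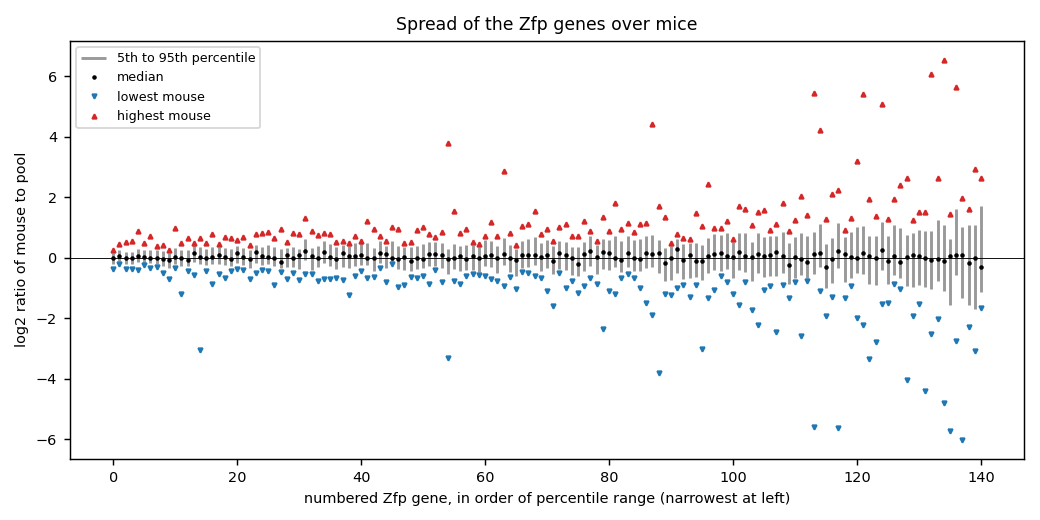
Spread of 141 numbered Zfp genes over mice, as log2 ratio to the pool, with genes in order of range from the narrowest at left. Grey bars run from the 5th to the 95th percentile, points are medians, and triangles are the lowest and highest mouse. Ranges run from 1.29-fold to 7.04-fold, while medians stay between -0.31 and 0.29 log2.

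The widest member was Zfp618, which encodes a zinc finger partner of the 5-hydroxymethylcytosine reader Uhrf2. Its ratio was -1.67 log2 in the lowest mouse (number 62), -0.31 in the median mouse and 2.65 in the highest (mouse 130, n = 103), a range of 7.04-fold and 5.86-fold over the 86 arrays. Its values had a long upper tail, with most mice below the pool. The kept Zfp618 probe and the one left out by the filter did not vary together (Spearman's rho -0.00844, n = 93), so which of them follows the transcript was not tested. Zfp949 ran from -2.29 (mouse 144) through a median of -0.18 to 1.6 log2 (mouse 26, n = 104), a range of 6.26-fold, and 5.89-fold over the 86 arrays. Zfp704 (3.53-fold) and Zfp661 (3.48-fold) also kept their width over the 86 arrays, at 3.69-fold and 3.47-fold.

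The other 8 of the 12 widest members were narrower without the limit-rich arrays. Zfp28 ran from -3.08 (mouse 60) to 2.93 (mouse 68), a range of 6.92-fold that came to 2.01-fold over the 86 arrays. Zfp142 went from 4.61-fold to 2.16-fold and Zfp974 from 4.54-fold to 2.06-fold. Zfp57, a KRAB protein that with Trim28 keeps the methylation of imprinted genes, went from 4.50-fold to 2.87-fold (lowest -4.79, median -0.11, highest 6.54, n = 97). Zfp398 went from 5.01-fold to 3.61-fold, Zfp248 from 4.02-fold to 2.70-fold, Zfp449 from 3.76-fold to 2.51-fold and Zfp319 from 3.63-fold to 2.49-fold. In 10 of the 141 members the range was over 1.5 times as wide with these arrays as without them. The share of all genes so widened was not counted. The lowest or highest mouse of a member was on a limit-rich array in 102 of 282 cases (36.2%), against 34.2% over all genes. At the other end were Zfp511 (1.29-fold), Zfp512 (1.3-fold), Zfp101 (1.32-fold) and Zfp296 (1.34-fold).

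The extremes were not spread evenly over mice. Mouse 144 was the lowest in 17 members and the highest in 7, which is 8.51% of the members' extremes and 6.24% of those of all genes. Mouse 156 was the highest in 14 members and the lowest in 1, or 5.32% of the members' extremes against 2.31% of those of all genes. Mouse 20 held 20 extremes (7.09%, against 7.69% in all genes). Mouse 113 held 14 (4.96%, against 2.33%).

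In an F2 cross, a gene whose expression follows 1 additive locus falls into 3 classes of mice in a ratio of 1:2:1. Where the steps between classes are large against the spread within them, its distribution is flat and light-tailed. Most Zfp genes were not of this shape. Whether a locus with smaller steps acts on them was not tested. By the Shapiro-Wilk test with Benjamini-Hochberg adjustment over all genes, 93 of 141 (66.0%) departed from a normal distribution, against 72.2% of all genes, and over the 86 arrays 79 (56.0%), against 62.2%. Most departures were heavy tails: the median excess kurtosis was 1.71 (2.46 over all genes), and 21 members had a value above 10, a number that came to 6 over the 86 arrays. The share of all genes above 10 was not counted, so these numbers describe the members only. An excess kurtosis under 0 was found in 15 members (10.6%, against 9.71% of all genes), and 2 of these 15 departed from normal by the test, Zfp949 and Zfp788. Zfp788, named here after its values were seen, had a long lower tail (-1.31 to 0.90 log2, median 0.12).

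Zfp949, a member on chromosome 9, stood apart among the light-tailed members. A 1:2:1 mixture described its values better than 1 normal distribution, with a likelihood ratio statistic of 23.4 and 16.6 over the 86 arrays (a description with no p). Mixtures with other class shares were not compared. Zfp949 was the only member with a statistic above 10 and light tails (0.709% of members, against 0.114% of all genes). The fitted classes were 1.18 log2 apart with an SD of 0.30 within a class, and the Shapiro-Wilk test gave an adjusted p of 0.011. By fixed cuts, 31 mice lay below -1 log2, 66 between -1 and 1, and 7 above 1. These cuts are not the boundaries of the fitted classes, so the counts do not test the 1:2:1 shares. Split at the widest gap between neighbouring values, 33 livers lay low (-2.29 to -0.89, median -1.36) and 71 high (-0.69 to 1.6, median 0.08), with limit-rich arrays on both sides (7 and 11). That gap, 0.21 log2, was only slightly wider than the next, 0.18 log2, so the split is a description.

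**Figure D2:**
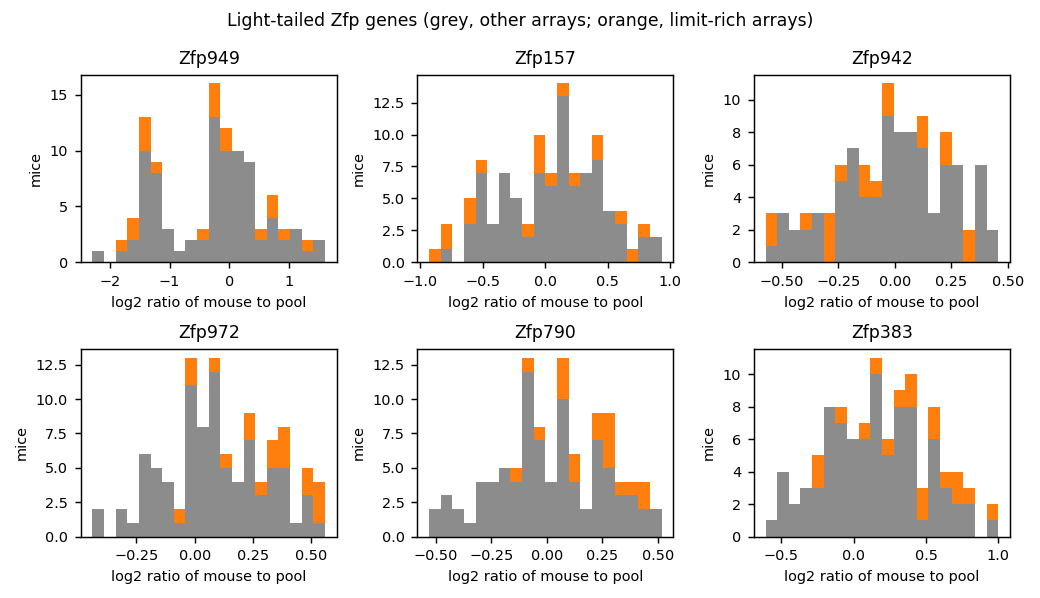
Histograms of the log2 ratio to the pool for 6 light-tailed Zfp genes, in mice, with limit-rich arrays in orange and the others in grey. For Zfp949, 33 mice lie at or below -0.89 and 71 at or above -0.69, and the values of the other 5 genes span far less.

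The other light-tailed members had far smaller statistics. They were Zfp157 on chromosome 5 (3.82), Zfp942 on chromosome 17 (3.77), Zfp972 on chromosome 2 (3.35), Zfp790 (2.81) and Zfp383 (2.20) on chromosome 7, Zfp810 on chromosome 9 (1.33) and Zfp617 on chromosome 8 (0.78). None of these 7 passed the Shapiro-Wilk test (adjusted p 0.22 to 0.75). Zfp59 (77.3) and Zfp451 (36.0) had a statistic above 10 with heavy tails, and over the 86 arrays both lost it. Zfp59 ran from -5.60 to 5.43 log2 over 97 mice but from -0.67 to 0.89 over the 86 arrays.

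Genes whose values over mice were most like those of the 4 members with the largest statistics among the light-tailed were listed by absolute Spearman's rho. For Zfp157 all 5 were on its own chromosome: Coq5 (0.611, a coenzyme Q biosynthesis enzyme), Cpsf4 (0.596), Mafk (-0.578), Cyp3a13 (-0.578, a cytochrome P450) and Gbp4 (0.577), at 0.549 to 33.3 Mb. For Zfp942 the first 3 were on its chromosome and within 3.21 Mb: Gfer (-0.729, a mitochondrial sulfhydryl oxidase also known as augmenter of liver regeneration), Clcn7 (0.718) and Rab26os (0.629), followed by Dvl3 and Rab43 elsewhere. For Zfp972 none of the 5 (Hgf -0.587, Ift22 -0.576, Irx2 -0.563, Dbt 0.553, Zfp524 0.552) was on its chromosome 2. For Zfp949 they were Ak7 on chromosome 12 (-0.643), Defb2 on chromosome 8 (-0.611), and Armc8 (0.593), Abhd14a (-0.589) and Atp2c1 (-0.586) on chromosome 9 at 10.9 to 17.9 Mb.

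None of the 28 other genes within 5 Mb of Zfp949 reached an absolute rho of 0.5 with it, and no other Zfp gene lay in that window. At least 1 such gene reached 0.5 for 78 of the 141 members (55.3%). The largest value for Zfp949 was 0.460 with Bckdhb at 4.62 Mb (0.431 over the 86 arrays). That is above 0.236, the smallest absolute rho that passed the test of neighbours described next.

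Whether neighbours varied together was tested for all pairs of genes with starts up to 5 Mb apart, by Spearman's rho over mice with a permutation p adjusted by Benjamini-Hochberg over 411262 pairs. Of 260 pairs of Zfp genes, 83 passed, 54 with a positive rho (20.8%, against 17.2% of all neighbouring pairs) and 29 with a negative one (11.2%, against 14.5%). As a whole the share, 31.9%, was near the background of 31.6%. The share differed by distance. Under 0.1 Mb, 18 of 42 Zfp pairs were positive (42.9%, against 21.1% of all pairs at that distance) and the median rho was 0.214. From 0.1 to 1 Mb 22 of 92 were positive (23.9%, against 17.9%), and from 1 to 5 Mb 14 of 126 (11.1%, against 16.7%).

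**Figure D3:**
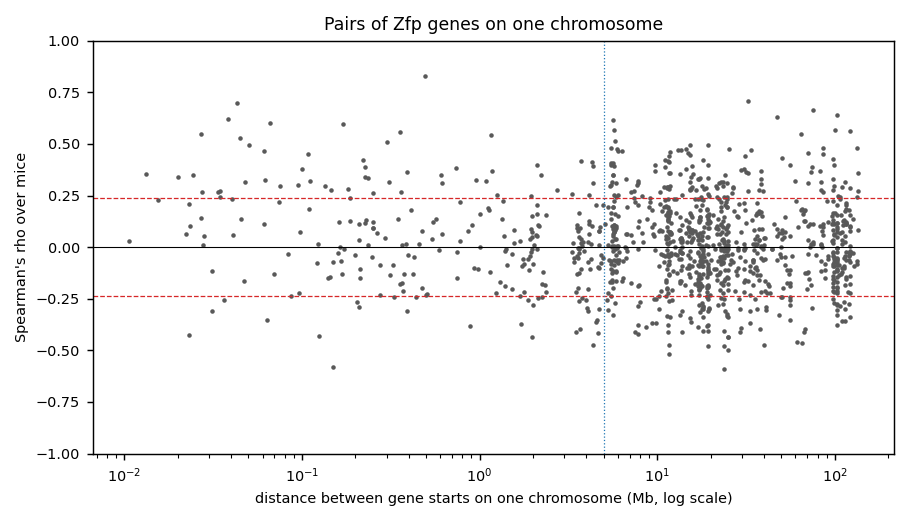
Spearman's rho over mice for every pair of Zfp genes on one chromosome, against the distance between their starts in Mb (log scale). Dashed lines mark the smallest absolute rho that passed the test, 0.236, and the dotted line the limit of 5 Mb for testing. The highest point under 1 Mb is Zfp930 and Zfp869 (0.831), and pairs beyond 5 Mb also reach high values, up to 0.707 at 32.6 Mb.

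Up to 1 Mb, 40 of 134 Zfp pairs (29.9%) were positive and 12 (8.96%) negative, against 18.3% and 14.2% of all pairs. These differences in share were not tested, and pairs within a cluster share genes. Of 2758 pairs of a Zfp gene and a gene of another kind up to 1 Mb apart, 15.0% were positive and 15.6% negative. On different chromosomes, Zfp pairs had a median rho of 0.015, and 28.5% of 8714 reached an absolute value of 0.236. Over the 86 arrays 28.4% of Zfp pairs up to 1 Mb were positive and 12.7% negative, against 17.2% and 13.0% of pairs without a Zfp gene, so the lower share of negative pairs was not seen there. With the first principal component of all genes removed 25.4% were positive and 7.46% negative, against 11.95% and 8.24%. Of the 83 pairs, 69 passed over the 86 arrays with none of opposite sign, 55 passed with the component removed, and 70 had the same sign over the 18 limit-rich arrays. They involved 70 genes.

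The pair with the largest correlation was Zfp930 and Zfp869 on chromosome 8, 0.496 Mb apart. Zfp930 ran from -1.07 (mouse 49) through 0.04 to 1.57 log2 (mouse 156), and Zfp869 from -0.69 (mouse 39) through 0.00 to 0.85 (mouse 156). Mouse 156 was thus the highest for both, and of the 10 highest mice for each gene 5 were shared, of the 10 lowest 6. Spearman's rho was 0.831 (adjusted p 0.000107, n = 104) and Pearson's r 0.840 (0.823 without the 2 mice farthest from the median of Zfp930). It was 0.832 over the 86 arrays, 0.849 over the 18 and 0.865 with the first component removed. Both moved with further genes of the region. Zfp930 had a rho of -0.800 with Ocel1 and 0.789 with Lsm4, a subunit of a ring that binds the ends of messenger RNAs, and Zfp869 of -0.714 with Upf1, the helicase of nonsense-mediated decay.

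On chromosome 7, Zfp84 and Zfp790, 0.0429 Mb apart, had a rho of 0.699 (Pearson's r 0.690), and both probes of Zfp84 gave a positive value with Zfp790 (0.434 and 0.676). Over the 86 arrays rho was 0.765, with medians of -0.01 for both genes. Over the 18 limit-rich arrays it was -0.414, which did not pass the test (adjusted p 0.451). On those arrays both genes lay higher, with medians of 0.18 for Zfp84 and 0.24 for Zfp790. Within the same cluster Zfp30, a KRAB gene, ran the other way from Zfp74 (rho -0.579, Pearson's r -0.544, n = 103) and Zfp383 (rho -0.432), while Zfp74 and Zfp383 ran together (0.349, adjusted p 0.0020).

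Zfp30 ran from -1.15 (mouse 20) through -0.20 to 0.70 log2 (mouse 28), and Zfp74 from -2.22 (mouse 100) through 0.11 to 1.52 (mouse 71). Of the 10 lowest mice for Zfp30, 5 were among the 10 highest for Zfp74, and no mouse was among the 10 highest for both. The Zfp74 rho was -0.529 and -0.569 for the separate Zfp30 probes, -0.543 over the 86 arrays and -0.777 over the 18. Tbcb, a tubulin folding factor in the same region, ran against Zfp30 (rho -0.760) and with Zfp74 (0.702).

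**Figure D4:**
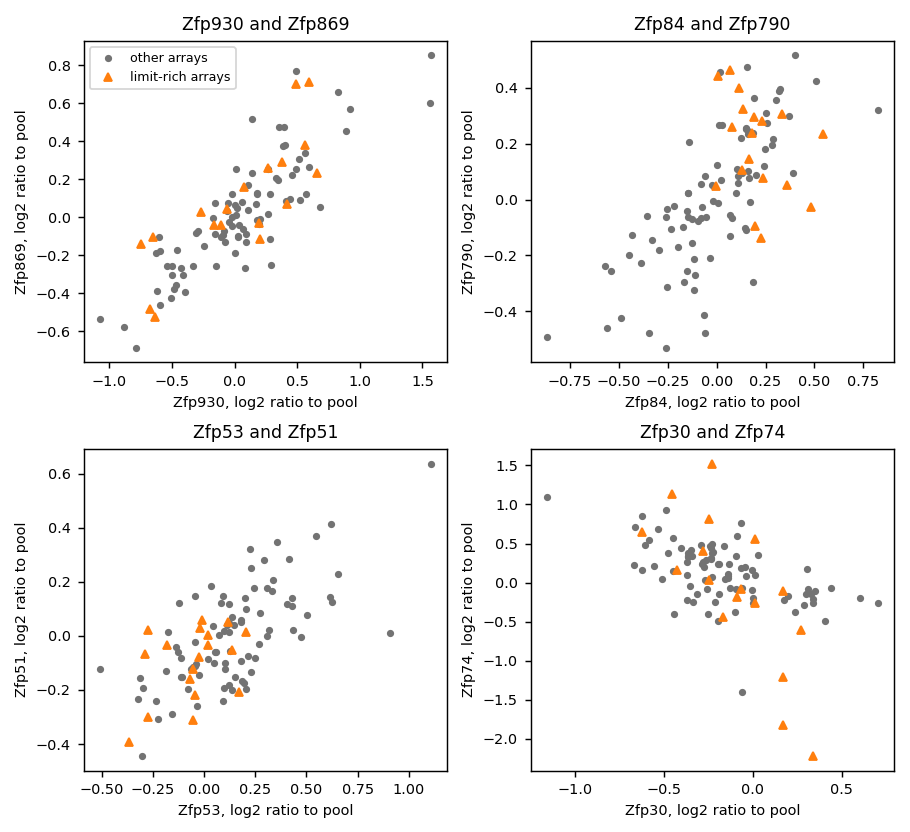
Log2 ratios to the pool of neighbouring Zfp genes, with 1 point per mouse, limit-rich arrays as orange triangles and the others as grey points. Zfp930 and Zfp869 (rho 0.831) and Zfp53 and Zfp51 (0.620) rise together, Zfp30 and Zfp74 (-0.579) run oppositely, and Zfp84 and Zfp790 (0.699) rise together on the 86 arrays but not on the 18.

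The cluster of 9 members on chromosome 17 (Zfp54 to Zfp40, 1.75 Mb) held a block of 3 neighbouring members. Spearman's rho was 0.620 for Zfp51 and Zfp53, 0.60 for Zfp54 and Zfp53 and 0.55 for Zfp54 and Zfp51, each with an adjusted p of 0.000107 and each positive over the 18 limit-rich arrays as well. Zfp53 ran from -0.51 (mouse 48) through 0.10 to 1.11 log2 (mouse 26), and Zfp51 from -0.44 (mouse 21) through -0.03 to 0.64 (mouse 26). Zfp53 ran against Zfp995 (-0.310), Zfp820 (-0.243) and Zfp942 (-0.242), and Zfp995 ran with Zfp942 (0.318) and Zfp820 (0.323). Over the 86 arrays Zfp53 and Zfp820 (-0.134, adjusted p 0.375) and Zfp820 and Zfp995 (0.202, adjusted p 0.149) did not pass. With the first component removed these pairs and Zfp53 and Zfp995 did not pass (adjusted p 0.0952, 0.247 and 0.0937). Of the 36 pairs of this cluster, 8 were positive and 3 negative, with a median rho of -0.04. Of all pairs up to 5 Mb apart, 17.2% were positive and 14.5% negative, and the difference was not tested. In a global alignment, the promoters of Zfp54 and Zfp53 printed above matched over 69.3% of their length, where the median over 229 neighbouring Zfp pairs was 58.3%. The most similar promoters, those of Zfp59 and Zfp974 at 76.3%, belonged to genes with a rho of -0.128 (adjusted p 0.373). Neighbouring Zfp genes can be near-identical copies, and how far 1 probe picks up the transcript of a neighbour was not tested.

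The longer cluster on chromosome 7 (Zfp180 to Zfp428, 0.423 Mb, 9 members) had 13 positive and 5 negative pairs of 36. Of all pairs up to 1 Mb apart, 18.3% were positive and 14.2% negative, and the difference was not tested. Zfp235, Zfp94, Zfp180 and Zfp111 rose and fell together over the 104 arrays. Spearman's rho was 0.598 for Zfp235 and Zfp94, 0.497 for Zfp180 and Zfp235, and 0.320 as the smallest (Zfp180 and Zfp111). Over the 18 limit-rich arrays the pairs with Zfp235 had 0.420 to 0.585. There Zfp111 and Zfp94 had 0.168, Zfp180 and Zfp94 0.094, and Zfp180 and Zfp111 0.053. Zfp235 and Zfp94 shared 7 of their 10 lowest mice. Zfp61 stood against Zfp93 (-0.427), Zfp109 (-0.351), Zfp180 (-0.288) and Zfp108 (-0.258). With the first principal component removed these were -0.0745, -0.222, 0.108 and 0.125, and none passed. Zfp61 was instead close to genes of other kinds in the region. Of 113 such genes within 5 Mb, 14 had a rho of at least 0.5 with it and 15 of at most -0.5, led by Numbl (0.893), Sars2 (-0.843, the mitochondrial seryl-tRNA synthetase), Ech1 (-0.839, an enzyme of fatty acid oxidation) and Cic (0.824, a transcriptional repressor). At least 1 gene of another kind reached an absolute rho of 0.5 within 5 Mb for 78 of the 141 members (55.3%), against 57.5% of other genes. Of genes on other chromosomes, 21.8% reached this value with Zfp61 (25.7% within 5 Mb), so its partners were nearly as common elsewhere. With Zfp930 the share was 0.0615% on other chromosomes and 14.8% within 5 Mb.

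**Figure D5:**
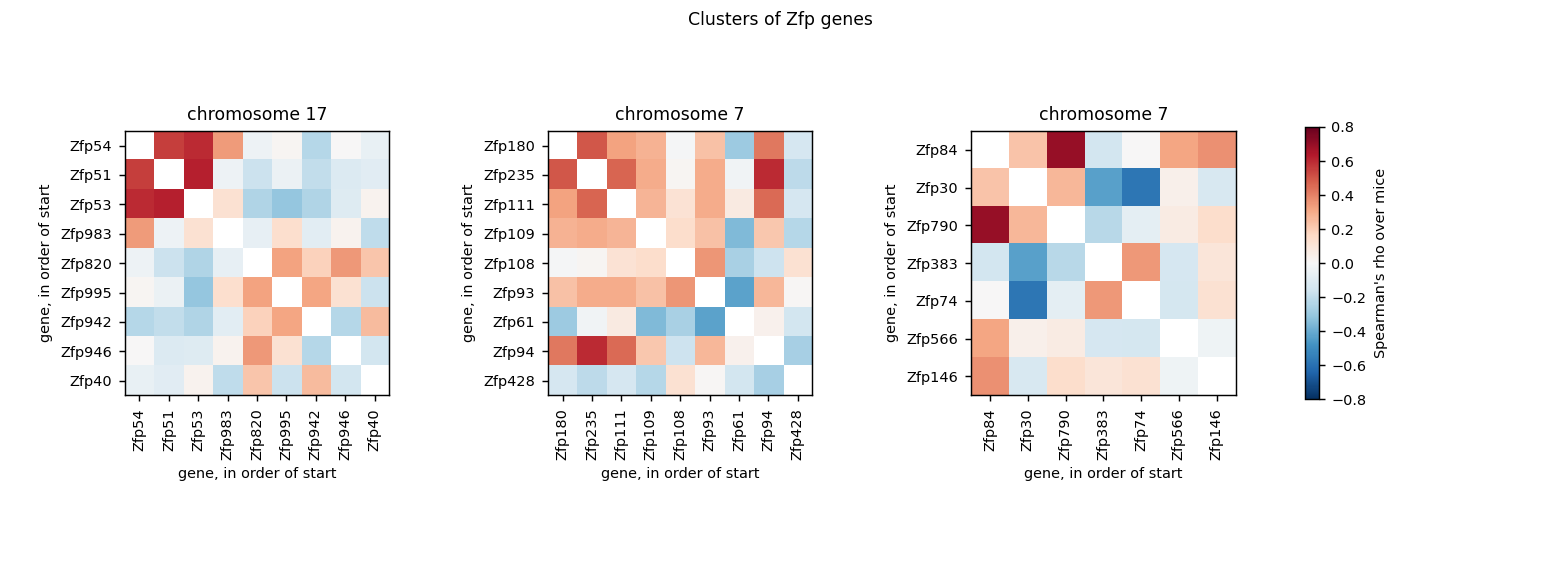
Spearman's rho over mice between the members of the 3 clusters with the most genes, in order of start along the chromosome, with red for positive and blue for negative. Zfp54, Zfp51 and Zfp53 form a positive block, and Zfp30 is negative with Zfp383 and Zfp74.

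Positive pairs elsewhere were Zfp606 and Zfp110 (0.559) and Zfp524 and Zfp444 (0.544) on chromosome 7, Zfp777 and Zfp746 on chromosome 6 (0.526), and Zfp113 and Zfp157 on chromosome 5 (0.509). With the first component removed, Zfp524 and Zfp444 had 0.356 and Zfp777 and Zfp746 0.374. Over the 18 limit-rich arrays these pairs had 0.077 and 0.304, while Zfp606 and Zfp110 had 0.798 and Zfp113 and Zfp157 0.692. The other leading negative pairs were Zfp672 and Zfp287 on chromosome 11 (-0.472, 4.38 Mb), Zfp626 and Zfp84 (-0.435, 1.96 Mb) and Zfp296 and Zfp111 (-0.416, 4.62 Mb). The last was weaker by Pearson's r (-0.264, permutation p 0.0126). For 14 of the 17 pairs named, the permutation p of r was 1e-05, the smallest that 100000 permutations can give. All 17 kept the sign of r without the 2 mice farthest from the median of the first gene. On chromosome 7 as a whole, 28 of 170 pairs were positive and 21 negative, and on chromosome 17, 14 of 53 were positive and 4 negative. Of all neighbouring pairs, 17.2% were positive and 14.5% negative. Both shares on chromosome 7 were below these values. On chromosome 17 the positive share was above and the negative share below, and these differences were not tested.

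For 12 members with more than 1 kept probe there were 14 probe pairs, and 10 of them rose and fell together (adjusted p under the threshold of 0.05). Over all genes 45.9% of 989 probe pairs did. Spearman's rho was 0.714 for Zfp30, 0.699 for Zfp292, 0.557, 0.555 and 0.405 for the 3 probes of Zfp148, 0.531 for Zfp654, 0.522 for Zfp467, 0.385 for Zfp28, 0.372 for Zfp655 and 0.316 for Zfp84. Zfp266 (0.0894), Zfp24 (0.0456) and Zfp672 (-0.0274) did not pass. The probes of Zfp207 ran against each other (-0.399). The negative relation of Zfp672 and Zfp287 was -0.484 with 1 Zfp672 probe and -0.225 with the other.

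Trim28, the corepressor of KRAB proteins, varied little among the livers (range 1.5-fold). By the same test over 12314 genes, 11 of 141 Zfp genes (7.80%) were positively correlated with it, against 7.15% of all genes, and 3 (2.13%) negatively, against 3.7%. The median rho was 0.053 over Zfp genes and 0.002 over all genes. The largest values were 0.468 for Zfp871, 0.454 for Zfp84, 0.432 for Zfp507 and 0.425 for Zfp623, each with an adjusted p of 0.000570, and on the negative side -0.352 for Zfp655. Zfp84 and its neighbour Zfp790 (0.413) thus both moved with Trim28. The position of Trim28 relative to these members was not considered. Whether genes inherited together in the cross account for such values was not tested. Of 14 other genes of the corepressor machinery, Atf7ip (0.388), a partner of Setdb1, and Cbx3 (0.333), a heterochromatin protein, passed, while Setdb1 had 0.255 (adjusted p 0.071). The rest did not pass and ran from 0.176 (Chd3) to -0.214 (Dnmt3a). Of all genes 7.15% passed with a positive rho, and whether the share among these 14 differs was not tested.

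Markers of the cell types and states that a piece of liver can hold were standardised per gene and averaged into 12 scores. Each member was correlated with each score. Of each list, 4 to 13 genes were measured. Of 1692 correlations, 169 were positive and 297 negative by the test, and 53 and 124 with the first principal component of all genes removed. With the stellate and fibroblast score 23 members were positively and 43 negatively correlated (16.3% and 30.5%, against 21.4% and 34.2% of all genes). With macrophage and Kupffer markers the numbers were 14 and 34 (9.93% and 24.1%, against 19.5% and 30.1%). With hepatocyte markers they were 28 and 39 (19.9% and 27.7%, against 25.7% and 23.4%), and with cholangiocyte markers 18 and 25 (12.8% and 17.7%, against 17.4% and 24.4%). For neutrophil markers they were 14 and 31 (9.93% and 22.0%, against 17.7% and 26.9%), for proliferation markers 17 and 31 (12.1% and 22.0%, against 19.6% and 29.3%) and for immediate early genes 21 and 26 (14.9% and 18.4%, against 19.2% and 25.9%). Skeletal muscle markers gave 12 and 26 (8.51% and 18.4%, against 11.3% and 10.1%), endothelial markers 3 and 15 (2.13% and 10.6%, against 7.97% and 6.81%) and pancreatic acinar markers 6 and 15 (4.26% and 10.6%, against 6.46% and 7.38%). B and plasma markers gave 7 and 10 (4.96% and 7.09%, against 3.95% and 5.18%), and T and NK markers 6 and 2 (4.26% and 1.42%, against 3.28% and 3.17%). The differences in share were not tested.

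Some of the members described above moved with a score. Zfp618 went with the cholangiocyte score (rho 0.737, Pearson's r 0.846, and 0.806 without the 2 mice farthest from the Zfp618 median) and the stellate score (0.658), subject to the disagreement of its probes. Zfp61 went with the stellate score (0.783, Pearson's r 0.735), the macrophage score (0.658) and the immediate early score (0.607). Zfp251 had 0.695 with the stellate score and -0.625 with the hepatocyte score. With the hepatocyte score Zfp346, which binds double-stranded RNA, had -0.703 and Zfp827 0.637. The part of these cell types in the results for Zfp618 and Zfp61 was not tested. Zfp949 passed with none of the 12 scores, and its largest rho was 0.203 with T and NK markers (adjusted p 0.097). Zfp36, itself an immediate early gene in many cells, ran from -0.77 (mouse 130) through -0.13 to 1.43 log2 (mouse 17) and had a rho of 0.150 with the immediate early score (adjusted p 0.245) and of -0.390 with the stellate score.

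For the remaining scores the leading members were as follows. Zfp524 (-0.553), Zfp91 (-0.544) and Zfp184 (-0.535) ran against the neutrophil score, and Zfp184 (-0.561) against and Zfp810 (0.579) with the macrophage score. Zfp61 (0.557) and Zfp618 (0.540) ran with the proliferation score and Zfp91 (-0.531) against it. Zfp821 (0.542) ran with the immediate early score and Zfp946 (-0.533) against it, and Zfp61 (0.563) ran with the cholangiocyte score and Zfp706 (-0.518) against it. Values with the other lists were smaller, led by Zfp612 (-0.392) and Zfp423 (0.342, a factor of adipocyte precursors) for endothelial markers, Zfp111 (-0.398) for B and plasma markers and Zfp207 (0.292) for T and NK markers. Zfp84 (-0.534), Zfp790 (-0.515) and Zfp821 (-0.507) ran against the skeletal muscle score and Zfp111 (-0.410) against the pancreatic acinar score. By Pearson's r these last were weaker, at -0.270, -0.219, -0.271 and -0.164.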

How the data were processed

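Liver RNA of 104 mice was compared with a common pool on 2-colour arrays. The deposited values are read as log10 ratios of mouse to pool; the sources used here give neither base, direction, dyes nor normalization. They were multiplied by 3.32 to give log2, and values at -2 or +2 (1.07%) were treated as not measured. Of 23536 probes, those with 1 symbol in the platform annotation and values on 90% of arrays were averaged per gene. Positions come from GRCm38.p6. Spearman's rho was tested with 100000 permutations of mice (two-sided), adjusted by Benjamini-Hochberg at 0.05; the tests were tried on simulated data (python 3.11.15, scipy 1.17.1). p-values measure spread between mice and arrays together, and the precision is limited by how many arrays there are. Named were the 12 widest and 4 narrowest genes, the 8 largest mixture statistics with light tails, the 12 pairs of largest absolute rho, up to 6 negative pairs, genes with more than 1 probe, the 3 leading members per score and for Trim28, Zfp36 and Zfp949. Members, lists and tests were chosen with earlier results of these data known. Alternatives were other array sets, limits kept, stricter probes, current symbols, the first principal component removed (16.7% of variance), Pearson's r, a 1 Mb window, another normality test and other log bases.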

Additional observations from a re-analysis of the deposited data

How the results depend on the processing

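The counts of neighbouring pairs (83), non-normal genes (93), genes correlated with Trim28 (14), marker correlations (466) and genes with a range over 2-fold (60) stayed within 1.5 times under the alternatives not named below. The 18 limit-rich arrays alone, with fewer mice, gave 5 pairs, 7 non-normal genes, 50 marker correlations and 0 genes correlated with Trim28. By the permutation test 8 of 138 members had an unadjusted p under 0.05 with Trim28, and the share of all genes was not counted. Pearson's r also gave 0 after adjustment. On those arrays 3 of the 17 named pairs passed, 13 kept their sign without passing, and Zfp84 and Zfp790 turned to -0.414 without passing. Probes with values on every array left 36 of 113 genes with a range over 2-fold. Removing the first component left 177 marker correlations (53 positive, 124 negative), and Zfp93 and Zfp61 no longer passed. Pearson's r gave 23 genes correlated with Trim28, and a window of 1 Mb gave 52 pairs of 134 by construction. With base e 4 genes, and with base 2 0 genes, had a range over 2-fold, since the base sets every fold (no test applies to this count). No paired analysis was possible because the labels give 1 group. Signal over background was not analysed here, so noise in dim probes could not be separated.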

Other observations

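Of the genes of another kind within 5 Mb of a member, 3.36% reached an absolute rho of 0.5, against 4.42% around other genes. Some members had more such partners, and those below are examples. Members not listed could have more than some of these, such as Zfp821 with 6 positive and 6 negative of 82. Zfp251 on chromosome 15 had 8 genes of another kind at a rho of at least 0.5 and 13 at -0.5 or below among 125 within 5 Mb, led by Cbx6 (0.786), a Polycomb protein, and 16.8% within 5 Mb compares with 17.6% of genes on other chromosomes. Zfp91 on chromosome 19, a ubiquitin ligase of the NF-kB pathway, had 6 and 13 of 85, led by Polr2g (-0.730), a subunit of RNA polymerase II (22.4% within 5 Mb and 10.3% on other chromosomes). Zfp661 on chromosome 2, among the widest members, had 3 and 4 of 84, led by Zc3h8 (0.778), where 0 of 11053 genes on other chromosomes reached the value. Zfp706 on chromosome 15 had 7 and 1 of 31, led by Dpys (0.714), an enzyme of pyrimidine breakdown in liver (25.8% within 5 Mb and 14.3% on other chromosomes). Zfp28, Zfp142, Zfp57 and Zfp319, whose ranges shrank without the limit-rich arrays, had none, and of the other 4 such members Zfp398 and Zfp449 had none, Zfp248 had 2 and 2 (led by Adipor2, -0.608) and Zfp974 had 1.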
